A study of Mus musculus with 30 samples.

Results

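Interferon-stimulated antiviral effector genes encode proteins that a cell makes in response to type I interferon and that act against viral RNA, proteins and particles. The list held 46 genes, chosen by name for this role together with the interferon gene Ifnb1 and its receptor chains Ifnar1 and Ifnar2. A probe could be named through its transcript accession for 38 of the 46. All 38 passed the filter on dim probes, which asked for a probe well above background in the sample channel on all 5 arrays of at least 1 group. They stood among 11263 genes past that filter, of 16358 with a named probe. The other 8 members, Ddx60, Mx1, Mx2, Herc6, Dtx3l, Ifi203, Sp100 and Xaf1, had no probe that could be named and were not analysed here. Ifnb1, Oas1g, Ifit2 and Ifi44 passed only through knockout groups treated with lipopolysaccharide (LPS), so a difference was built into their passing. Counts of members called include them. Ifnb1 and Oas1g were not well above background on any unstimulated array, and Ifi44 was on 1 of 5 in each genotype. Ifit2 was above background on 3 unstimulated control and 4 unstimulated knockout arrays. Of members that passed in other groups too, Ifit1 was above it on 2, and Cmpk2 and Oas2 on 3, of the 5 unstimulated knockout arrays. Differences of these members from those groups rest in part on signals near background.

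RNA came from dendritic cells, which take up and present antigen, cultured from mouse bone marrow and purified for CD11c with magnetic beads. All mice were on the C57BL/6 background and carried the CD11c-Cre transgene, in which the promoter of the integrin gene for CD11c drives Cre recombinase. Control cells carried the transgene alone. Knockout (KO) cells carried it with IRF-4 flox/flox alleles, which Cre deletes in cells that express CD11c, so cells that had not yet expressed it can keep the gene. Each genotype was unstimulated or had received LPS, the ligand of the receptor TLR4, for 6 or 24 h, which gave 6 groups of 5 biological replicates. The sources used here state neither the age of the mice nor the LPS dose, and do not say if replicates were separate animals or separate cultures of 1 animal. All p-values therefore refer to the spread between these samples, which may be technical. Levels are log2 ratios of sample (Cy5) over a universal mouse reference RNA (Cy3), and the reference cancels in a difference between groups.

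Binding of LPS to TLR4 leads through the adaptor TRIF to the transcription factor IRF3, which induces Ifnb1. Secreted interferon binds the receptor made of IFNAR1 and IFNAR2. Signalling from the receptor, through the kinases JAK1 and TYK2, leads to a transcription factor complex that holds IRF9 and binds the interferon-stimulated response element in target promoters. IRF4 belongs to the same protein family as IRF3 and IRF9 and can bind related DNA elements, usually together with a partner factor.

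Promoters of 4 members with large LPS responses are shown because they hold the letters of that element to different degrees. Each is the 250 bases before the annotated start, 5′ to 3′ on the strand of the gene, from RefSeq on GRCm38.p6. Capitals mark GAAA, any 2 bases, GAAA on either strand (on the other strand TTTC, any 2 bases, TTTC), the core of the interferon-stimulated response element. Overlapping matches run together.
Ifit1, chr19:34640639-34640888, plus strand: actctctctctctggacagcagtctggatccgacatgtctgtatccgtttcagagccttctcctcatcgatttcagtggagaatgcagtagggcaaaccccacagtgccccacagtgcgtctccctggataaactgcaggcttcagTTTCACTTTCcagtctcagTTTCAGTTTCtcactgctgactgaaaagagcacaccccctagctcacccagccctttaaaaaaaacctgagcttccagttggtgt
Isg15, chr4:156200819-156201068, minus strand: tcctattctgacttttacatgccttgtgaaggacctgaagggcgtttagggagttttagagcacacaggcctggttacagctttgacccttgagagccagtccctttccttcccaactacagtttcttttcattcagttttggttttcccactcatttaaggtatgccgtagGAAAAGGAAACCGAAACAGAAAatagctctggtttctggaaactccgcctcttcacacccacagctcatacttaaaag
Rsad2, chr12:26456453-26456702, minus strand: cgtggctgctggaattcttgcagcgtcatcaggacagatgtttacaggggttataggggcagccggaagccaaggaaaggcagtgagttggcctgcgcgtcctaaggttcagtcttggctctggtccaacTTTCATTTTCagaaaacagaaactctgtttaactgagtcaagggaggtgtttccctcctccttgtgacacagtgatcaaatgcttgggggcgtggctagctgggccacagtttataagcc
Cmpk2, chr12:26468965-26469214, plus strand: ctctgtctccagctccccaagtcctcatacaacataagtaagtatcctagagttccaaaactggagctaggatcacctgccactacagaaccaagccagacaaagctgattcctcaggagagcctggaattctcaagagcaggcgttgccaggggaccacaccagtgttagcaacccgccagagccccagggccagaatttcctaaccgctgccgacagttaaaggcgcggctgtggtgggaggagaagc

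The Ifit1 promoter held 2 matches, which begin 104 and 85 bases before the start. The Isg15 promoter held 3 overlapping matches that begin 78, 72 and 66 bases before it. The Rsad2 promoter held 1 match, 120 bases before the start, and the Cmpk2 promoter held none in this window. In windows of 300 bases that also reach 50 bases past the start, 15 of the 36 members with a RefSeq promoter held the core (41.7%), against 1079 of 27025 genes (3.99%). The core followed by CT was in 22.2% of these members and 0.303% of genes. The composite GGAA, any 2 bases, GAAA, which IRF4 or IRF8 can bind with an ETS partner, was in 13.9% of these members and 3.16% of genes. Both strands were searched, and the GAAA of a composite may be shared with a core match. A match is a run of letters and not a measured binding site. Of the members with a promoter and a probe, the 13 with the core had a median log2 rise of 1.88 at 6 h in control cells, and the 17 without it a median of 2.11.

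The knockout was checked on Irf4 itself. The Irf4 log2 ratio in unstimulated cells was 1.51, 1.16, 1.28, 1.79 and 1.32 on the control arrays and -2.20, -0.85, -1.06, -0.84 and -2.51 on the KO arrays. Under LPS, Irf4 was between 1.86 and 2.68 on the control arrays and between -0.47 and 0.62 on the KO arrays. Irf4 thus separated the genotypes without overlap at every treatment (p = 0.00794 by a two-sided exact permutation test, the lowest value that 5 against 5 can give). The sources do not say if its probe lies in the floxed segment.

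Several arrays stood apart. A slide scanned on a later day carried replicate 3 of control LPS 6 h and replicate 2 of control LPS 24 h, as labelled. On both the median of the members was near the level of unstimulated cells. The median of the 38 members was 0.0038 on the first, against 2.62 to 3.47 on the other 4 arrays of its group. It was 0.165 on the second, against 1.61 to 2.92 on the other 4, while the unstimulated control arrays ran from -0.31 to 0.28. On the first array 22 of 38 members lay within the range of the unstimulated control arrays, 11 below and 5 above it. On the second 18 lay within it, 9 below and 11 above, among them Adar at 2.60, the highest of its group. Members below the other 4 arrays of the group numbered 36 and 33. The Irf4 level of these 2 arrays (2.13 and 2.68) was that of control arrays under LPS. Counts and the control rises of named members are therefore given for all 30 arrays and for 28 arrays without these 2. KO rises are the same in both. The 2 arrays were singled out by the level of the members themselves. Larger median control rises, a smaller spread and lower median KO minus control differences under LPS with 28 arrays thus follow from that choice. In unstimulated KO cells, replicates 1 and 5 had a median of the dendritic cell markers (Itgax, Zbtb46, H2-Ab1, Cd74, H2-Aa, Ccr7 and Dpp4) of 1.39 and 0.62, against 3.40 to 3.95 on the other 28 arrays. The comparison of unstimulated KO with control cells and the counts of KO rises are given without KO unstimulated replicates 1 and 5 as well. The KO rises of named members include both arrays. No slide held both genotypes at the same treatment.

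**Figure D1:**
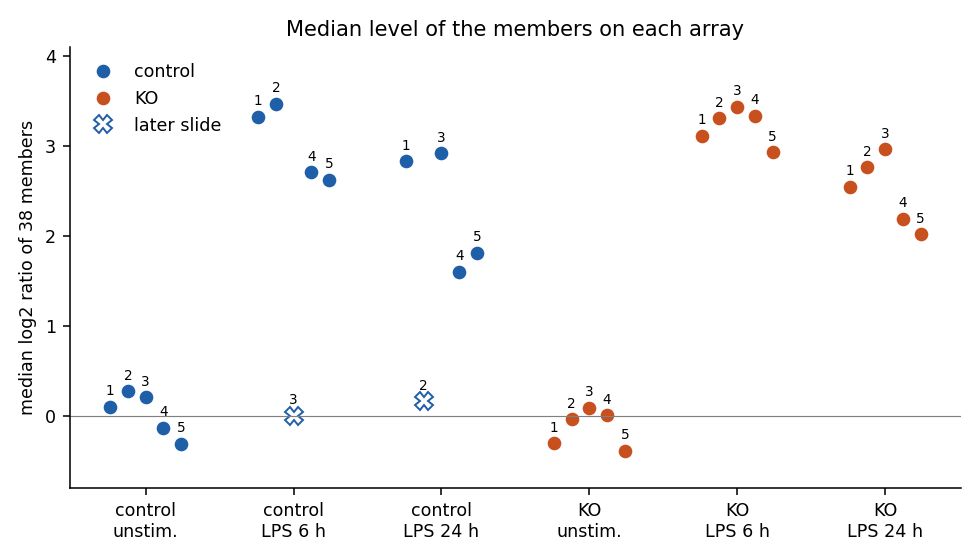
Median log2 ratio to the reference RNA (y axis) of the 38 members on each of the 30 arrays, by group (x axis), with the replicate number above each point. Crosses mark the 2 control arrays of the later slide, at 0.0038 and 0.165, which lie with the unstimulated arrays and below the other LPS arrays, at 1.61 to 3.47.

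Of the 7 dendritic cell markers, 4 were called lower in unstimulated KO cells with all 30 arrays, and 0 higher. Under LPS 3 were called lower at 6 h and 2 at 24 h, and 0 higher. Median KO minus control differences were -1.61 (-2.36 to 0.40), -0.07 (-1.89 to 0.33) and -0.40 (-1.86 to 0.22), in that order. With 28 arrays 5, 3 and 1 were called lower, and 1 higher in unstimulated cells only. The unstimulated counts include the KO arrays low in these markers. Markers of other cells differed in level between genotypes too. The median of the 6 measured neutrophil markers was 0.83 to 2.35 on unstimulated control arrays and 0.03 to 0.43 on unstimulated KO arrays, and at 6 h of LPS 1.26 to 3.80 against 0.32 to 1.59. Of these 6 genes, 1 was called lower in unstimulated KO cells and 3 at each LPS time. The median of the 7 measured macrophage markers was 1.78 to 3.06 on unstimulated control arrays and 2.62 to 3.63 on unstimulated KO arrays. Of the markers of plasmacytoid dendritic cells, which are strong interferon producers, Siglech was well above background on 1 of 30 arrays and Ptcra on 2. The other 6 of the 8 (Ccr9, Tcf4, Ly6d, Pacsin1, Klk1 and Cox6a2) were on 29 or 30 arrays. Their median was -1.24 to 0.10 on unstimulated control arrays and 0.14 to 0.53 on unstimulated KO arrays. Only 1 of the 6, Cox6a2, had a higher mean in unstimulated KO cells, and it was called. The median of the 6 KO minus control differences was -0.17 (-1.11 to 2.04), so the markers as a set were not raised. In such bulk samples, fewer cells of a type and less RNA per cell cannot be told apart, and the part of these shifts in the results below was not tested.

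LPS raised most members in both genotypes at 6 h, led by the RNA-binding proteins of the Ifit family, the viperin gene Rsad2 and the ubiquitin-like modifier Isg15. Of the 38 members, 33 rose in control cells (7.15% of all 11263 genes were called higher and 4.49% lower) and 35 rose in KO cells (14.2% and 12.4%). A gene was called at a Benjamini-Hochberg adjusted p under 0.05 over all genes in limma, and no member was called lower. The median log2 difference of the members was 1.97 in control and 3.17 in KO cells. Without the filter on dim probes 30 members rose in control and 35 in KO cells. Of all genes with a named probe, 742 and 1600 were then called higher and 461 and 1346 lower. Without KO unstimulated replicates 1 and 5, 33 rose in KO cells, with a median of 2.93. Of the 11263 genes, 1349 were then called higher and 1104 lower. With 28 arrays 34 members rose in control cells, with a median of 2.41, and 35 in KO cells. Of all genes 25.6% and 32.1% were then called in either direction, 1589 and 1934 genes higher. On the 1 slide that held control LPS 6 h and unstimulated control arrays (2 of each), all 38 members were higher under LPS, with a median of 3.03, against 51.1% of all genes. The arrays at 6 h on that slide were replicates 1 and 2, and the unstimulated ones were replicates 4 and 5. On the 1 slide with KO LPS 6 h and unstimulated KO arrays (1 and 3), all 38 were higher as well, with a median of 2.93, against 49.5% of all genes. There the array at 6 h was replicate 1, and the unstimulated ones were replicates 3, 4 and 5.

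At 24 h, 22 members rose in control cells (7.23% of genes were called higher and 5.07% lower) and 32 in KO cells (10.3% and 7.85%), and none was called lower. The median log2 difference was 1.59 in control and 2.59 in KO cells. Without the filter on dim probes 20 members rose in control and 31 in KO cells. Of all genes with a named probe, 776 and 1123 were then called higher and 550 and 798 lower. Without KO unstimulated replicates 1 and 5, 28 rose in KO cells, with a median of 2.39. Of the 11263 genes, 831 were then called higher and 612 lower. With 28 arrays 33 rose in control and 34 in KO cells, with medians of 1.89 and 2.59. Of all genes 19.9% and 24.2% were then called in either direction, 1271 and 1501 genes higher. The control count fell to 10 without control LPS 24 h replicate 1 or without replicate 3 (share of all genes not counted in these fits). No slide held LPS 24 h and unstimulated arrays of the same genotype, and with the slide as a block 13 members were called higher and 8 lower in KO cells at 24 h (55.3% of all genes were called in that fit, in either direction). Over both times and genotypes 21 members rose in all 4 comparisons with 30 arrays, and 28 with 28 arrays.

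**Figure D2:**
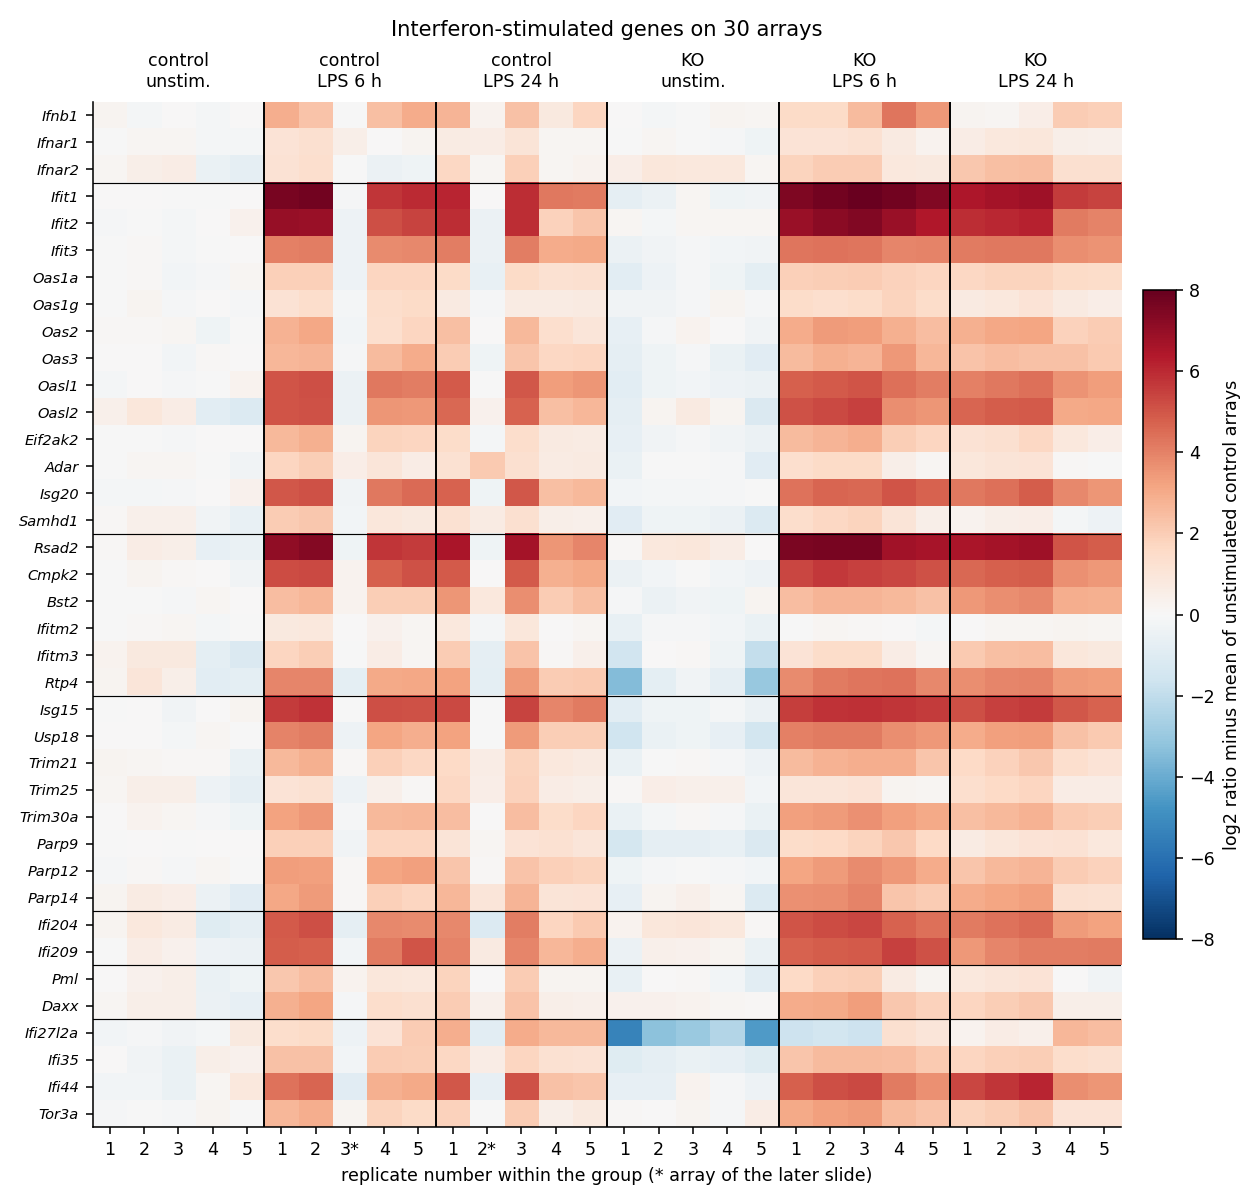
Log2 ratio of each of the 38 members (rows, in blocks by role) on each of the 30 arrays (columns, in blocks by group), minus the mean of that member on the unstimulated control arrays; red is higher and blue is lower. LPS arrays are red for nearly all members, except the 2 starred control arrays of the later slide, and Ifi27l2a is blue on the 5 unstimulated KO arrays.

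The ligand gene Ifnb1 was induced in both genotypes at 6 h. Its log2 ratio was 0.29, -0.09, 0.11, -0.07 and 0.07 on unstimulated control arrays and 2.98, 2.34, 0.02, 2.48 and 3.06 at 6 h. On KO arrays Ifnb1 was 0.09, -0.08, 0.04, 0.28 and 0.24 without LPS and 1.59, 1.60, 2.56, 4.34 and 3.55 at 6 h. The 5 KO arrays at 6 h lay above all unstimulated KO arrays, and of the control arrays only replicate 3, of the later slide, overlapped the unstimulated ones. Because Ifnb1 was not well above background on any unstimulated array, its change has a lower bound only, which is the mean Cy5 signal under LPS against the dimmest signal still above background. Ifnb1 was at least 3.47-fold higher at 6 h in control cells (adjusted p = 0.011 in limma) and at least 5.13-fold higher in KO cells (adjusted p = 0.000714). Ifnb1 passed the filter only through KO LPS 6 h, so the rise in KO cells was in part built in and its p-value is no independent support. At 24 h Ifnb1 was 2.77, 0.33, 2.39, 0.85 and 1.76 on control arrays and 0.26, 0.23, 0.62, 2.07 and 1.96 on KO arrays, and was not called in either genotype (adjusted p = 0.0598 and 0.264 in limma). With 28 arrays Ifnb1 was called at 24 h in control cells (adjusted p = 0.00516) and not in KO cells (adjusted p = 0.14). The KO arrays at 24 h split into 3 near the unstimulated level and replicates 4 and 5 above it.

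Both receptor chains were well above background on every array. Ifnar1 was 0.44, 0.64, 0.64, 0.33 and 0.28 on unstimulated control arrays and 1.58, 1.73, 0.91, 0.52 and 0.70 at 6 h. It rose by 0.62 (SE 0.21, log2) in control cells, with an adjusted p of 0.0497 in limma, and by 0.94 in KO cells (adjusted p = 0.00126). Ifnar1 was 0.45, 0.63, 0.43, 0.40 and 0.12 on unstimulated KO arrays and 1.55, 1.53, 1.67, 1.21 and 0.77 at 6 h, with no overlap. Ifnar2 was -0.09, 0.23, 0.37, -0.77 and -0.98 on unstimulated control arrays and 0.90, 1.10, -0.25, -0.73 and -0.60 at 6 h. These overlapped, and Ifnar2 was called at 24 h in KO cells only (1.24, adjusted p = 0.0322); whether that response differs from the control one was tested and not called (difference 0.42, SE 0.57, adjusted p = 0.84).

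The largest group of members binds viral RNA or acts on nucleic acids, and all 13 measured ones rose at 6 h in both genotypes. Ifit1, which binds RNA with an incomplete cap, had the largest rise. Its log2 ratio was -1.49, -1.44, -1.55, -1.54 and -1.49 on unstimulated control arrays and 6.07, 6.21, -1.62, 4.23 and 4.44 at 6 h. Ifit1 was -2.20, -1.96, -1.33, -1.83 and -1.80 on unstimulated KO arrays and 5.99, 6.22, 6.42, 6.23 and 5.89 at 6 h. The KO values at 6 h lay close together, while the control values ran from the unstimulated level to that of KO cells. The mean difference in control cells was 5.37 (SE 1.00, 41.2-fold, adjusted p = 0.00129) with 30 arrays and 6.74 (SE 0.40, 107-fold) with 28. In KO cells Ifit1 rose by 7.98 (SE 1.00, adjusted p = 1.71e-06), against a baseline above background on 2 of 5 arrays. In control cells Ifit2 rose by 4.82 (6.12 with 28 arrays) and Ifit3 by 3.07 (3.93), and in KO cells by 6.88 and 4.43.

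The Oas genes make the oligoadenylate signal that activates RNase L, and Oasl1 and Oasl2 are related proteins. In control cells at 6 h Oas1a rose by 1.35 (1.80 with 28 arrays), Oas2 by 1.75 (2.24), Oas3 by 2.15 (2.71), Oasl1 by 3.60 (4.62) and Oasl2 by 3.34 (4.29). In KO cells the rises were 2.38 for Oas1a, 3.14 for Oas2, 3.35 for Oas3, 5.11 for Oasl1 and 4.76 for Oasl2. Oas1g, like Ifnb1, has only a bound, and was at least 2.05-fold higher in control and at least 2.87-fold higher in KO cells at 6 h. A second Oas2 probe was not well above background on any array. The Oas genes are close copies of each other, and how far each probe tells them apart was not tested.

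The exonuclease Isg20 rose by 3.71 in control (4.71 with 28 arrays) and 4.80 in KO cells at 6 h. The RNA-sensing kinase Eif2ak2 (PKR), which stops translation, rose by 1.82 in control (2.23) and 2.72 in KO cells. The nucleotide hydrolase Samhd1 rose by 1.12 (1.45) and 1.89, and the RNA editing enzyme Adar by 1.17 (1.32) and 1.31. At 24 h in control cells 8 of the 13 rose, and the 5 not called were Ifit2 (3.08, adjusted p = 0.0515), Oas1a (1.00, adjusted p = 0.0572), Oas1g, Eif2ak2 (0.81) and Samhd1 (0.80). With 28 arrays all but Samhd1 (adjusted p = 0.0612) of these 5 were called. In KO cells 12 of the 13 rose at 24 h, all but Samhd1 (0.76, adjusted p = 0.124).

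Among the membrane factors and the pair of neighbouring genes Rsad2 and Cmpk2, 4 of 6 rose in control and 5 of 6 in KO cells at 6 h. Rsad2, an enzyme that makes a chain-terminating nucleotide, rose by 5.07 (SE 1.09) in control cells, by 6.43 with 28 arrays, and by 6.72 in KO cells. Cmpk2, a mitochondrial nucleotide kinase, rose by 4.13 in control (5.10 with 28 arrays) and 5.64 in KO cells. Tetherin (Bst2), which holds budding virus at the cell surface, rose by 1.88 (2.27) and 2.77, and Rtp4 by 2.62 (3.48) and 5.74. The fusion inhibitor Ifitm3 rose in KO cells (1.68, adjusted p = 0.0269) and was not called in control cells (0.87, adjusted p = 0.369). Its close copy Ifitm2 was the only member not called in any of the 4 LPS comparisons with 30 arrays, with log2 differences of 0.43 and 0.34 in control and 0.32 and 0.44 in KO cells at 6 and 24 h. With 28 arrays Ifitm2 was called in 3 of the 4, and not in KO cells at 6 h (adjusted p = 0.123).

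Of the 8 members of the ISG15, ubiquitin and ADP-ribose systems, 7 rose at 6 h in each genotype. Isg15 rose by 4.32 (SE 0.81) in control cells, by 5.40 with 28 arrays, and by 6.12 in KO cells. Usp18, the protease that removes ISG15 from its targets, rose by 2.75 in control (3.53 with 28 arrays) and 4.81 in KO cells. The ADP-ribosyltransferases rose too, Parp9 by 1.40 (1.81) and 2.64, Parp12 by 2.62 (3.26) and 3.51 and Parp14 by 2.06 (2.55) and 3.31. Trim30a rose by 2.38 (2.99) and 3.57, and the cytosolic antibody receptor Trim21 by 1.83 (2.26) and 2.84. Trim25, the ligase that acts on the RNA sensor RIG-I, was not called at 6 h in either genotype (0.50 and 0.43). The probes of Trim25 disagreed, since a second, dimmer one differed by 1.59 at 6 h in control cells.

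Both measured PYHIN genes, a family of nucleic acid sensors, rose at 6 h, Ifi204 by 3.39 in control (4.41 with 28 arrays) and 4.34 in KO cells, and Ifi209 by 3.71 (4.70) and 5.01. The nuclear body proteins Pml (1.33 in control, 1.59 with 28 arrays, and 1.57 in KO cells) and Daxx (1.72, 2.18 and 2.43) rose at 6 h and were not called at 24 h in either genotype. With 28 arrays Daxx was called at 24 h in control cells (1.29, adjusted p = 0.0469). Of the remaining interferon-induced genes, Ifi35 rose by 1.69 (2.17) and 3.13 and Tor3a by 1.82 (2.23) and 2.72. Ifi44 differed by 2.78 (3.72) and 4.91, from a baseline above background on 1 of 5 arrays in each genotype, and was called in both. Ifi27l2a rose in KO cells (3.20, adjusted p = 0.00156) and was not called in control cells at 6 h (1.14, adjusted p = 0.366) or at 24 h (2.05, adjusted p = 0.062). With 28 arrays it was called in control cells at 24 h (2.77, adjusted p = 0.00241) and not at 6 h (1.53, adjusted p = 0.08).

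Most members were lower at 24 h than at 6 h, and few of these differences passed the test with 30 arrays. In control cells 32 of 38 were lower at 24 h, with a median of -0.52, and 0 were called in limma, with 4 lower at an unadjusted p under 0.05 (3.29% of genes were called higher and 2.18% lower). In KO cells Oas1g, Eif2ak2, Samhd1 and Tor3a fell, by 0.72, 1.27, 1.13 and 1.26 (3.54% of genes were called higher and 4.2% lower), and the median of the members was -0.72. No slide held KO arrays of both LPS times, so time and slide cannot be told apart in KO cells. With the replicate number as a block, whose numbers deviated together between these groups, 7 members fell in KO cells. In that fit 17.9% of all genes were called in either direction, 1026 genes lower.

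With 28 arrays 13 members fell in control cells (9.51% of genes were called in either direction, 465 genes lower). Among them were Ifit1 (-1.64), Ifit2 (-2.15), Ifi209 (-1.33), Parp12 (-1.21) and Oas3 (-0.81). In KO cells 16 then fell, among them Ifnb1 (-1.70), Ifit1 (-1.47) and Daxx (-1.33), while Bst2 (0.79) and Ifi27l2a (1.77) rose. Of all genes 13.2% were called there, 694 genes higher and 792 lower. The KO arrays are the same in both fits, so the added KO calls come from the smaller pooled variance. Without control LPS 6 h replicate 3 alone, 16 members were called in control cells and 11 in KO cells. The KO count was 0 without KO LPS 6 h replicate 3, and 1 or 2 without KO LPS 6 h replicate 1 or 2 or without KO LPS 24 h replicate 1, 2, 4 or 5. In the fits that left out 1 array the share of all genes called was not counted. On the 1 slide with control LPS 24 h and control LPS 6 h arrays other than the later one (2 and 1), 27 of 38 members were higher at 24 h, with a median of 0.41, against 47.7% of all genes. The array at 6 h on that slide was replicate 5, and those at 24 h were replicates 1 and 3. On the later slide (1 array each) 22 of 38 were higher at 24 h, with a median of 0.11, against 46.1% of all genes.

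In unstimulated cells Ifi27l2a and Parp9 were lower without Irf4, and no member was higher. These were the 2 called of 38 (6.95% of all genes were called higher and 7.13% lower), so the share of members called is near that of all genes. Ifi27l2a, which encodes a small interferon-induced protein, was 1.78, 1.89, 1.71, 1.85 and 2.78 on control arrays and -3.36, -1.25, -0.94, -0.37 and -2.55 on KO arrays. The groups did not overlap, and every KO array lay below the reference level. The difference was -3.70 (SE 0.73, 13.0-fold, adjusted p = 0.000781 in limma, exact permutation p = 0.00794). Without KO replicates 1 and 5 it was -2.86 (adjusted p = 0.026), and each of the 30 fits that left out 1 array kept the call.

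Parp9, which adds ADP-ribose to ubiquitin in a complex with Dtx3l, was 1.44, 1.52, 1.42, 1.52 and 1.48 on unstimulated control arrays. On unstimulated KO arrays Parp9 was 0.09, 0.76, 0.76, 0.88 and 0.31. The control values lay close together and all KO values were lower. The difference was -0.91 (SE 0.28, 1.88-fold, adjusted p = 0.0279), and the call was lost without KO unstimulated replicate 1 or 5 and without control unstimulated replicate 4 or 5. Without both KO replicates Parp9 differed by -0.67 (adjusted p = 0.219).

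With 28 arrays 7 members were lower in unstimulated KO cells (19% of genes were called in either direction, 1129 genes lower). Beside Ifi27l2a and Parp9 these were Rtp4 (-1.66), Usp18 (-0.91), Ifi35 (-0.77), Oas3 (-0.52) and Oas1a (-0.49). The arrays compared are again the same in both fits. Without KO replicates 1 and 5 as well, 3 were called (12.8% of genes), Ifi27l2a (-2.86), Parp9 (-0.67) and Ifi35 (-0.64). Rtp4 was -4.28, -1.62, -1.11, -1.55 and -3.90 on unstimulated KO arrays and -0.60, 0.11, -0.37, -1.71 and -1.61 on unstimulated control arrays. Replicates 1 and 5 were thus the lowest KO arrays for Rtp4, as for Ifi27l2a and Parp9. Over all members, 27 of 38 were lower and 2 higher on both of these arrays than on the other 3. The split was not counted over all genes, so it is not shown to be particular to the members. Replicates 1 and 5 are the arrays with the low dendritic cell markers, and the part of those markers was not tested. In the fit with the slide as a block 26 members were called higher and 1 lower in unstimulated KO cells (50.6% of all genes were called), a value that rests on a chain of slides on which no treatment had both genotypes.

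**Figure D3:**
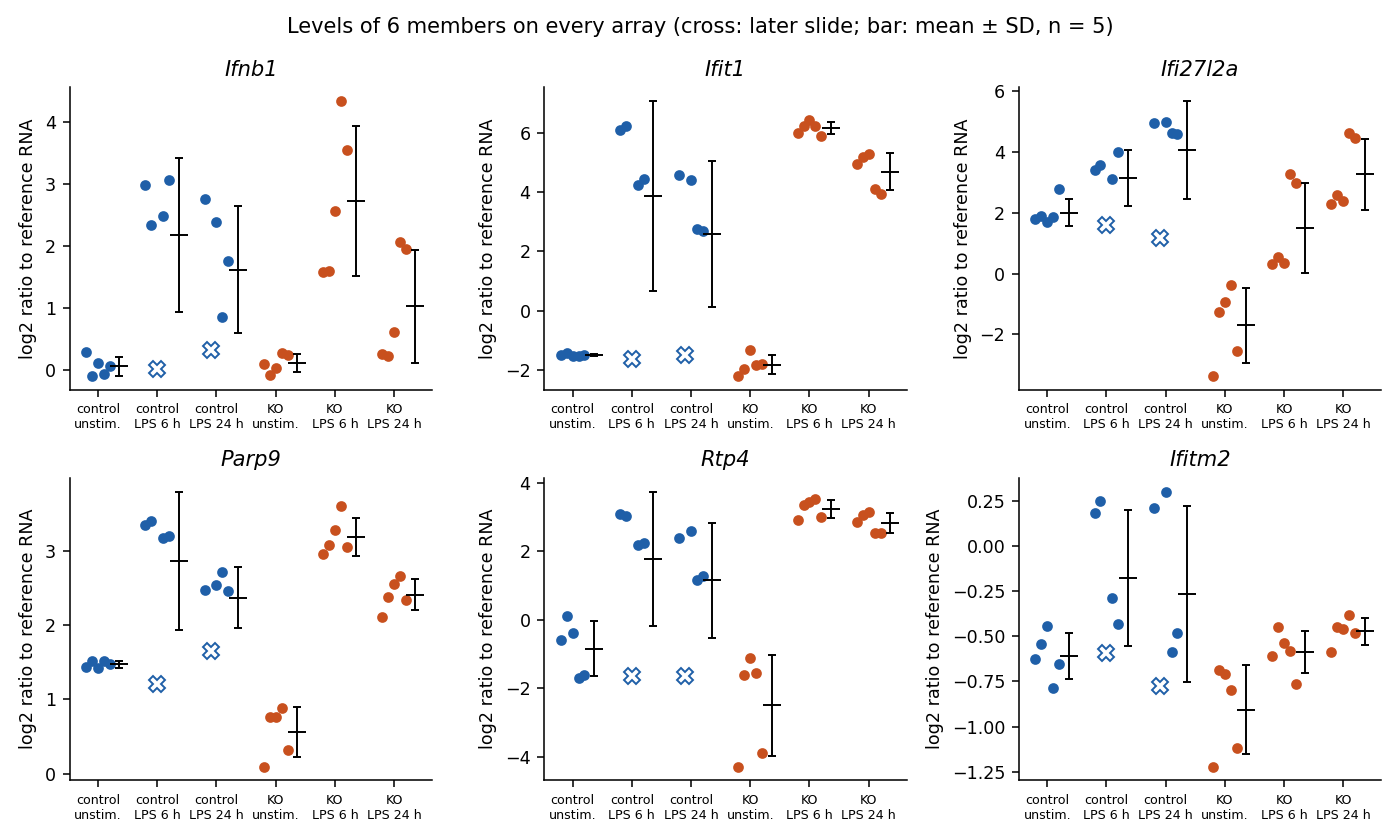
Log2 ratio to the reference RNA (y axis) of 6 members on every array (points, blue for control and orange for KO), by group (x axis), with mean and SD at the right of each group (n = 5). Crosses mark the later slide. For Ifi27l2a and Parp9 the unstimulated KO arrays lie below all unstimulated control arrays, and for Ifit1 the 5 KO arrays at 6 h lie between 5.89 and 6.42.

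Under LPS no member was called between genotypes with 30 arrays. At 6 h 34 of 38 members were higher in KO cells, with a median log2 difference of 0.95, and 0 were called in limma (6.23% of genes were called higher and 5.88% lower), with 8 higher and 2 lower at an unadjusted p under 0.05. At 24 h 32 of 38 were higher, with a median of 0.69, and 0 were called (6.97% and 8.43%), with 8 higher at an unadjusted p under 0.05. With 28 arrays the median at 6 h was 0.25 and at 24 h 0.35. Ifit1 differed by 2.29 (SE 1.00) at 6 h with 30 arrays and Ifit2 by 2.14 (SE 1.05).

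Leaving out other single arrays, control or KO, gave calls too. The direction of these calls is not given here. Without control LPS 6 h replicate 2, 4 members were called at 6 h, and without replicate 1, 3 were. At 6 h 1 member was called without control LPS 24 h replicate 3, KO LPS 6 h replicate 4 or KO LPS 6 h replicate 5. At 24 h 5 were called without control LPS 6 h replicate 3, 4 without control LPS 24 h replicate 3, 2 without its replicate 1 and 1 without KO LPS 24 h replicate 4 or 5. Where the array left out was in neither group compared, the added calls come from the pooled variance. The share of all genes called was not counted in these fits, so whether the members exceed it cannot be told. A fit that took each slide as a block called 16 higher at 6 h and 24 lower at 24 h. At 6 h 4.71% of all genes were called higher in that fit. At 24 h 45% were called in either direction, 2546 of 11263 genes lower.

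With 28 arrays Ifi27l2a (-2.03, adjusted p = 0.0308) and Ifitm2 (-0.52, adjusted p = 0.0367) were lower in KO cells at 6 h (14.5% of genes were called in either direction), and 0 members were called at 24 h (14.7% of genes), with 8 higher and 2 lower at an unadjusted p under 0.05. Both were also called at 6 h when KO unstimulated replicates 1 and 5 were left out together with those 2 arrays (15.4% of genes). Ifi27l2a at 6 h was 3.41, 3.55, 1.58, 3.12 and 4.01 on control arrays and 0.33, 0.56, 0.36, 3.28 and 2.96 on KO arrays. At 24 h Ifi27l2a was 4.94, 1.18, 4.97, 4.61 and 4.58 on control arrays and 2.30, 2.57, 2.39, 4.63 and 4.45 on KO arrays. KO replicates 4 and 5 were near the control level at both times and KO replicates 1 to 3 below it. Ifitm2 at 6 h was 0.18, 0.25, -0.59, -0.29 and -0.43 on control arrays and -0.61, -0.45, -0.54, -0.58 and -0.77 on KO arrays, and overlapped only through the array of the later slide.

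**Figure D4:**
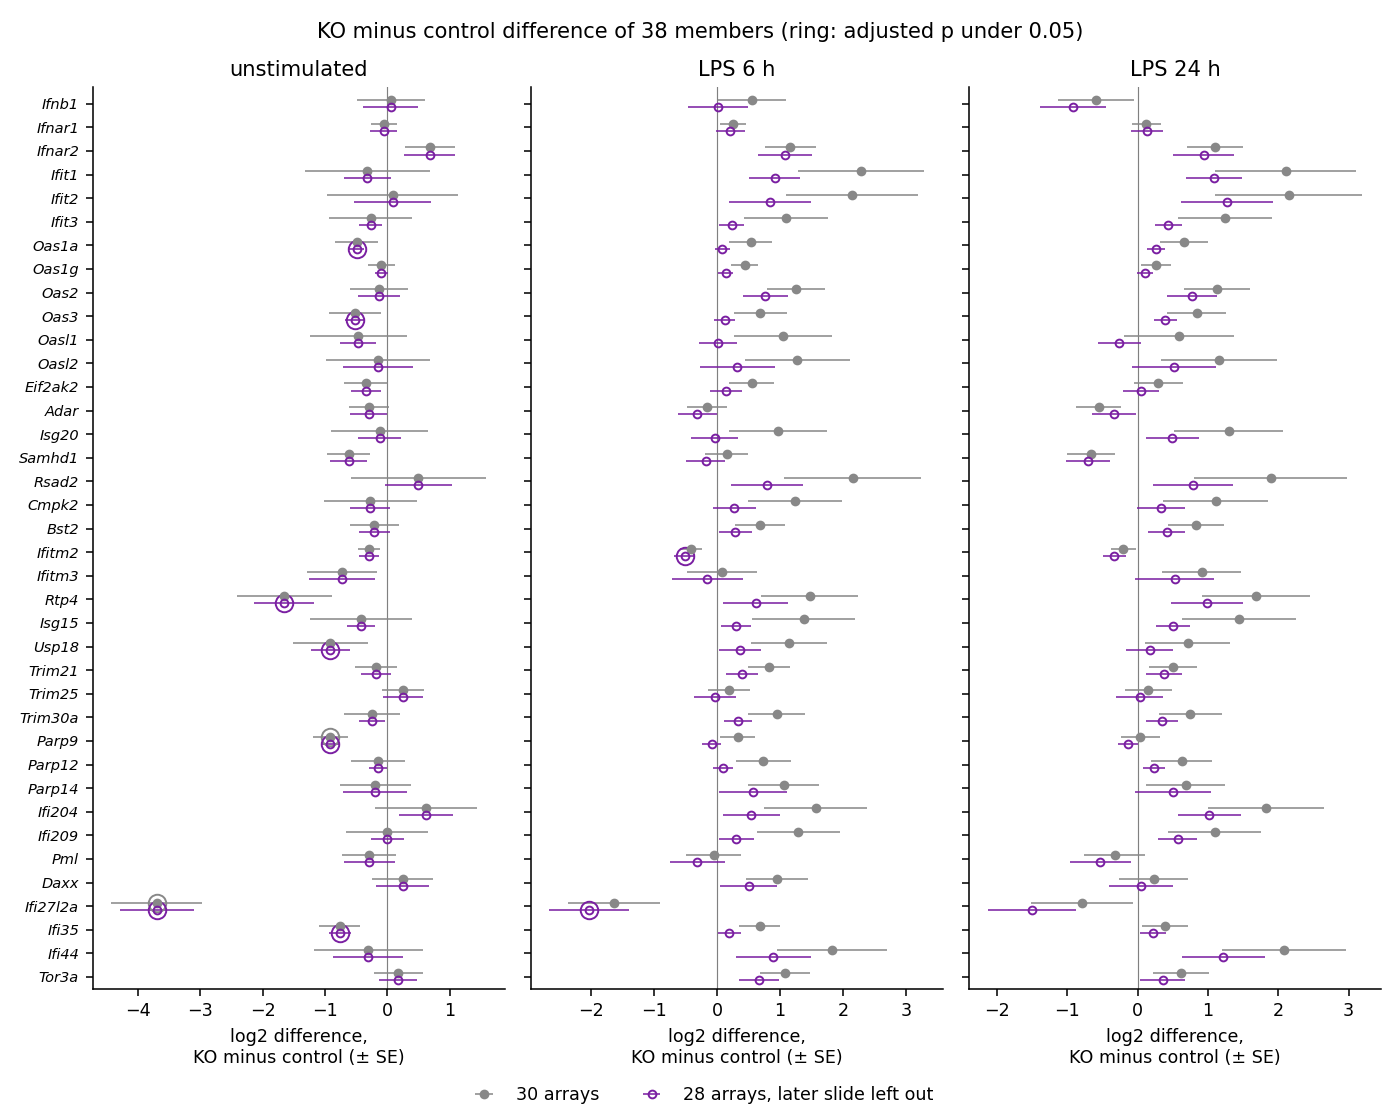
KO minus control log2 difference (x axis, with SE) of each of the 38 members (y axis) in unstimulated cells and at 6 and 24 h of LPS, with all 30 arrays (grey) and with 28 arrays (violet); rings mark an adjusted p under 0.05. Under LPS most differences move toward 0 when the 2 control arrays of the later slide are left out, and the median at 6 h goes from 0.95 to 0.25. Those arrays were singled out by their low member levels, so the shift follows from that choice.

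The test of the LPS response itself between genotypes called no member when all arrays were used. The KO minus control difference of the log2 responses was above 0 for 36 of 38 members at 6 h, with a median of 1.14, and for 32 at 24 h, with a median of 1.08. Without KO unstimulated replicates 1 and 5 the medians were 0.99 and 0.86. In limma 0 were called at 6 h (0.293% of genes were called higher and 0.142% lower) and 0 at 24 h (0.426% and 0.453%), with 7 higher at an unadjusted p under 0.05 at each time. Rtp4 had the largest difference, 3.12 (SE 1.08, adjusted p = 0.317) at 6 h and 3.34 (adjusted p = 0.156) at 24 h, and is named for its value. Rtp4 was 3.09, 3.05, -1.64, 2.18 and 2.25 on control arrays at 6 h and 2.93, 3.34, 3.43, 3.53 and 3.01 on KO arrays. At 24 h Rtp4 was 2.39, -1.64, 2.58, 1.17 and 1.27 on control arrays and 2.87, 3.06, 3.16, 2.55 and 2.53 on KO arrays. Control replicates 1 and 2 at 6 h lay within the range of the KO arrays, replicates 4 and 5 below it, and the array of the later slide at the unstimulated level.

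With 28 arrays the median difference of responses was 0.50 at 6 h and 0.59 at 24 h. Parp9 responded more in KO cells at 6 h (0.83, SE 0.20, adjusted p = 0.0347; 1.27% of genes were called in either direction). At 24 h Oas1a (0.76), Oas3 (0.91), Parp9 (0.77) and Ifi35 (0.98) did (adjusted p = 0.0182 to 0.0452; 1.78% of genes). All 4 were among the members called lower in unstimulated KO cells with the same 28 arrays, and both comparisons use the unstimulated arrays. When KO unstimulated replicates 1 and 5 were left out as well, 0 were called at either time. Without control LPS 6 h replicate 3 alone 3 were called at 24 h (share of all genes not counted). With the slide as a block 27 were called lower at 24 h (53.5% of genes in either direction, 2982 genes lower).

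**Figure D5:**
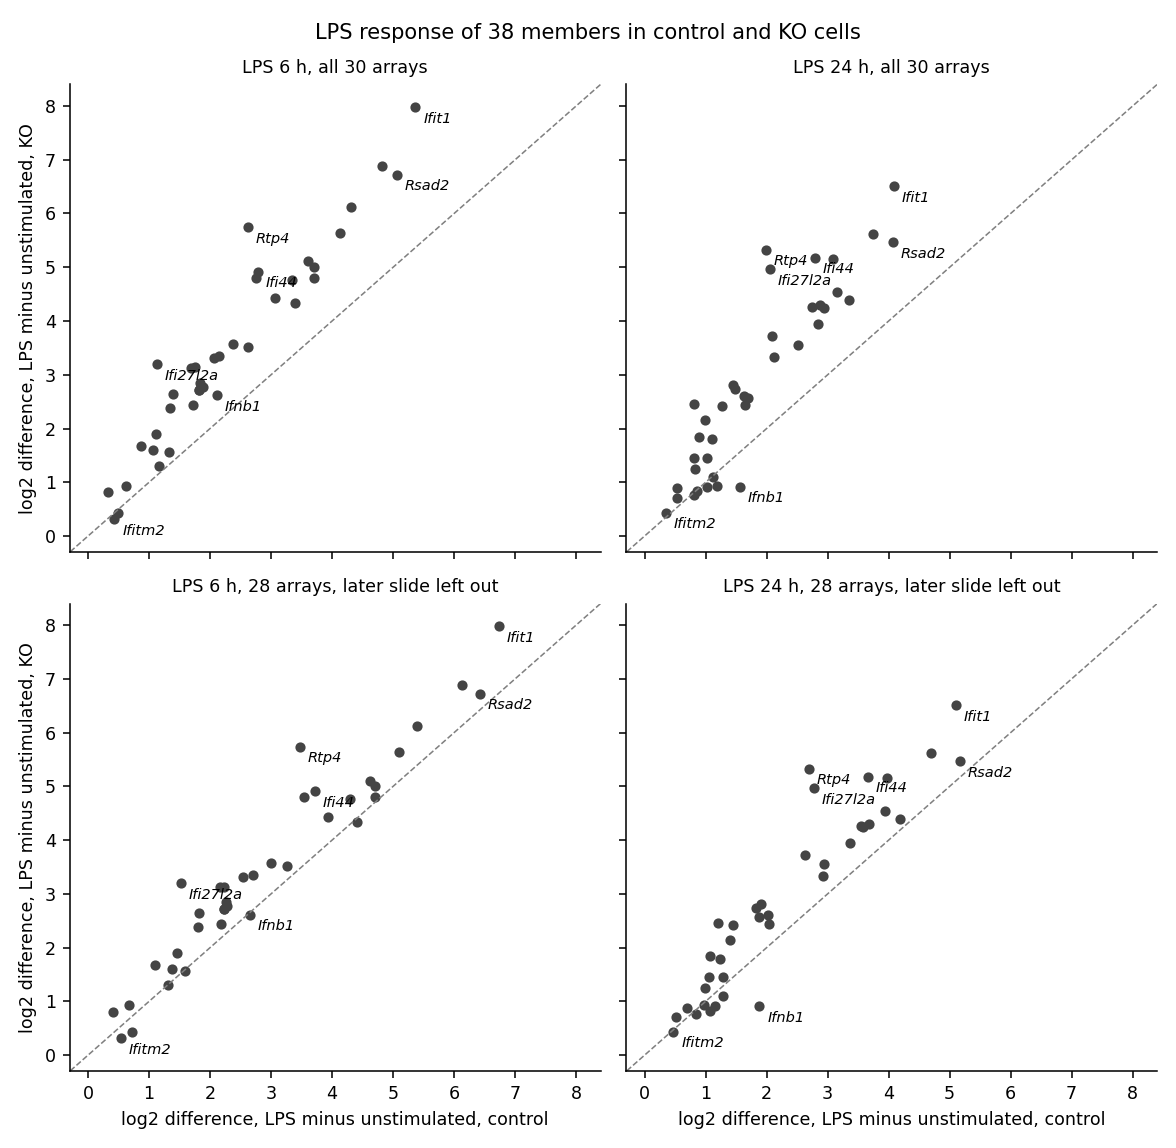
Log2 difference between LPS and unstimulated cells in control (x axis) and KO cells (y axis) for the 38 members, at 6 h (left) and 24 h (right), with all 30 arrays (top) and with 28 arrays (bottom); the dashed line marks equal responses. Nearly all points lie above the line with 30 arrays, and closer to it with 28, where the median difference at 6 h is 0.50 in place of 1.14. The arrays left out were singled out by their low member levels, so this shift follows from that choice.

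Genes that sense LPS or carry the interferon signal were followed on a list of 31, of which 29 were tested. At 6 h 10 rose and 2 fell in control cells (7.15% and 4.49% of all genes), and 17 rose and 1 fell in KO cells (14.2% and 12.4%). With 28 arrays 17 rose and 2 fell in control cells (25.6% of all genes in either direction). At 24 h 9 rose and 1 fell in control (7.23% and 5.07%), and 16 rose and 1 fell in KO cells (10.3% and 7.85%). The transcription factor Irf7, which extends interferon production, rose by 3.41 in control and 4.76 in KO cells at 6 h and by 3.61 and 5.42 at 24 h. The RNA sensor Ifih1 (MDA5) rose by 3.14 and 4.05 at 6 h, the feedback inhibitor Socs3 by 2.43 and 2.57, Stat2 by 2.01 and 3.75, and the sensor Dhx58 by 2.41 and 3.71. The interferon gamma receptor chain Ifngr1 fell by 2.00 and 1.03.

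Between genotypes 1 of the 29 was higher and 4 were lower in unstimulated KO cells (6.95% and 7.13% of all genes). At 6 h 4 were higher and 1 lower (6.23% and 5.88%), and at 24 h 3 were higher and 1 lower (6.97% and 8.43%). The genes below are named for their values. Lower in unstimulated KO cells were the nucleic acid sensor Zbp1 (-1.91), Irf5 (-1.81), Irf9 (-0.92) and the inhibitor Socs1 (-0.92). The LPS co-receptor Cd14 was higher (1.85), and Tlr4 was higher at 6 h (1.42) and at 24 h (1.08). Zbp1 was the 1 gene of the list called in the difference of responses, at 2.39 at 6 h and 2.37 at 24 h. Of all genes, 0.293% were called higher there at 6 h and 0.426% at 24 h. These counts are for 30 arrays. With 28 arrays 3 were higher and 5 lower in unstimulated KO cells (19% of all genes in either direction). At 6 h 4 were then higher and 0 lower (14.5%), and at 24 h 2 higher and 1 lower (14.7%). The difference of responses called 2 at 6 h (1.27%) and 1 at 24 h (1.78%).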

How the data were processed

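The 46 members and the other lists were chosen with earlier results of these data known. Spot intensity values, the Cy5 and Cy3 brightness and local background, were deposited as scanned (per the file headers, with Feature Extraction 10.7.3.1). A log10 Cy5/Cy3 ratio from the scanner software was deposited beside them. A deposited table of the authors holds 1 log2 ratio per probe and array, made with limma per the submitters' processing notes, and its columns matched those computed here at r of 0.999885 to 0.999998 (medians 0.00584 to 0.0183). Sample RNA carried Cy5 on every array, so dyes were not swapped.

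Intensities were corrected with normexp (offset 50; backgrounds marked non-uniform set to the array's median) and normalised by loess within arrays in limma 3.58.1 (R 4.3.3). The 1639 control spots had weight 0, outlier spots were dropped and spots of a probe averaged. Of 41174 probes 22951 were named, through RefSeq (GRCm38.p6). Each gene took its brightest Cy5 probe. The median Cy5 signal was 101 to 151, with 18465 to 27230 probes well above background. One mean per group was fitted to 30 arrays (24 residual degrees of freedom), with 11 comparisons, called at a Benjamini-Hochberg adjusted p under 0.05 over 11263 genes. The code was tested on simulated data. Named members were Ifnb1, its receptor chains and those with the largest called change in each kind of comparison, and others are named as such in the text. Arrays of the same replicate number deviated together (every r above 0.1) in 6 of 15 pairs of groups. Within a genotype these were control unstimulated with LPS 24 h, KO unstimulated with LPS 6 h, and KO LPS 6 h with 24 h. Across genotypes they were control unstimulated with KO LPS 6 h (r of 0.55 to 0.70) and with KO LPS 24 h (0.52 to 0.69). Control LPS 24 h with KO LPS 6 h (0.11 to 0.66) was the last. Of 75 array pairs 60 had r above 0.1. The main fit did not use the replicate number, so its genotype tests leave this shared part out. The numbers come from the sample labels. Alternatives were the slide or replicate number as a block, other background and normalisation settings, the authors' values, no filter, probe means and leaving out arrays.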

Additional observations from a re-analysis of the deposited data

Results flagged for a closer look

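Single arrays stood apart from the other 4 of their group for several members, by Dixon's test of the gap to the nearest array, which flags about 1 group in 20 by chance. Control LPS 6 h replicate 3 was the lowest of its group for Ifnb1 (0.0197), Ifit1 (-1.62), Parp9 (1.21) and Rtp4 (-1.64), and for the median of the 38 members (0.0038). Control LPS 24 h replicate 2 was the lowest for Ifi27l2a (1.18) and Parp9 (1.66), and control unstimulated replicate 5 was the highest for Ifi27l2a (2.78). Among the 31 other members, tested in 6 groups each, 24 of 186 sets held such an array. It was control LPS 6 h replicate 3 for 16 members, control LPS 24 h replicate 2 for 6, KO unstimulated replicate 2 for 1 and control unstimulated replicate 5 for 1.

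The LPS response differed between genotypes for 4 members when the 2 arrays of the later slide were left out, where 1.27% of all genes were called at 6 h and 1.78% at 24 h. With all 30 arrays 0 were called, and 0 when KO unstimulated replicates 1 and 5 were left out as well. The KO minus control difference of the log2 responses was 0.98 for Ifi35, 0.76 for Oas1a, 0.91 for Oas3 and 0.77 for Parp9 at 24 h, and 0.83 for Parp9 at 6 h.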

How the results depend on the processing

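Of 128 calls of a member in a comparison, all kept direction and call with 28 arrays and with the replicate block. The calls lost were 3 with Agilent log ratios, 8 with backgrounds as scanned, 18 with median centring, 1 with the authors' values, 8 without the filter, 2 with probe means and 8 with a random slide effect, none with a change of sign. Leaving out 1 array in turn kept 3651 of 3840. With the slide as a block 11 were lost, 6 of them in KO cells at 24 h against unstimulated and 5 in other comparisons. Another 13 reversed, all in KO cells at 24 h against unstimulated, where no slide held both groups. The reversed members were Adar (-2.24), Eif2ak2 (-0.68), Ifi204 (-1.84), Ifit2 (-0.91), Ifitm3 (-2.53), Ifnar1 (-1.39), Ifnar2 (-2.83), Oas2 (-0.23), Oasl2 (-1.79), Parp14 (-2.88), Rsad2 (-0.71), Tor3a (-1.07) and Trim21 (-1.18). In the slide block without the later slide, an alternative added after the data were seen like the other pairs of choices below, they were -1.88 for Adar, -0.73 for Eif2ak2, -2.10 for Ifi204, -1.15 for Ifit2, -3.69 for Ifitm3, -1.60 for Ifnar1, -3.66 for Ifnar2, -0.46 for Oas2, -1.94 for Oasl2, -2.93 for Parp14, -1.14 for Rsad2, -1.35 for Tor3a and -0.99 for Trim21. The cause was not tested.

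Counts of members called that moved by over 1.5 times are given as the value with all arrays and then the alternatives. For LPS 24 h against unstimulated in control cells (22) the slide block gave 37, or 35 with 28 arrays, and the replicate block with 28 arrays 38. In KO cells (32) the slide block gave 21. For 24 h against 6 h in control cells (0), 28 arrays gave 13, the slide block 2, or 7 with 28 arrays, the replicate block with 28 arrays 23, and leaving out all 4 arrays that stood apart 12. In KO cells (4) the values were 18 with 28 arrays, 29 and 30 with the slide block, 1 with a random slide effect, 7 and 26 with the replicate block, 2 without the filter and 17 without the 4 arrays. For unstimulated KO against control (2) they were 7 with 28 arrays, 27 with either slide block, 1 with a random slide effect or with backgrounds as scanned, 11 with the replicate block and 28 arrays, and 1 without KO replicates 1 and 5. For KO against control at 6 h (0) they were 2 with 28 arrays or without the 4 arrays, 16 and 23 with the slide block, 1 and 3 with the replicate block, and 1 with Agilent log ratios, backgrounds as scanned or median centring. At 24 h (0) they were 24 and 25 with the slide block, 2 and 7 with the replicate block and 1 with Agilent log ratios. For the difference of responses (0 at both times) 28 arrays gave 1 at 6 h and 4 at 24 h, the slide block 27 and 28 at 24 h, and the replicate block with 28 arrays 5 at each time. Where replicate numbers did not deviate together the block shows only a shared number. Leaving out 1 array gave 24 to 34 for LPS 6 h and 10 to 31 for LPS 24 h in control cells, 34 to 35 and 29 to 33 in KO cells, 0 to 16 and 0 to 11 for 24 h against 6 h, 1 to 3, 0 to 4 and 0 to 5 for KO against control, and 0 to 0 and 0 to 3 for the difference of responses. All genes called were not counted in the fits without 1 array.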

Other observations

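Replicates 4 and 5 differed from replicates 1 to 3 in the level of many members under LPS, a pattern noticed in the data. The split was not counted over all genes, so it is not shown to be particular to the members. Over all genes, arrays of the same replicate number deviated together between KO LPS 6 h and 24 h (r of 0.79 to 0.87). With the later slide left out, both were below replicates 1 to 3 of their group for 32 of 38 members in control cells at 6 h, 36 in control cells at 24 h, 22 in KO cells at 6 h and 32 in KO cells at 24 h. In unstimulated control cells this held for 18 members, with 8 above, and in unstimulated KO cells for 2. The interferon-induced gene Ifi44 was 2.40, 2.77 and 3.13 on KO LPS 24 h replicates 1 to 3 and 0.74 and 0.56 on replicates 4 and 5. Ifi27l2a went the other way in KO cells, and so did Ifnb1, at 2.07 and 1.96 on KO LPS 24 h replicates 4 and 5 against 0.23 to 0.62. In the same KO LPS 24 h arrays the median of the neutrophil markers was 1.74 and 1.88 on replicates 4 and 5 and 0.36 to 0.43 on replicates 1 to 3.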
